A study of Mus musculus with 1203 samples.

Results

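Mature colonocytes, the absorptive cells that line the surface of the colon, were compared between mice labelled VillinCre;IPMKf/f and wild type (wt) mice. The cells were chosen by their own measured levels: at least 1000 genes above 0, the surface keratin Krt20 at 20 TPM or more, the tuft cell channel Trpm5 below 50 TPM and the goblet cell mucin Muc2 below 500 TPM. TPM is a length-normalised share of a cell's transcripts that sums to a fixed total in every cell. Of 1203 sorted wells, 856 passed the minimum of detected genes, and 69 cells labelled VillinCre;IPMKf/f and 56 labelled wt met the whole rule. Below, cells and plate sets with the first label are called KO-labelled.

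The mice were all female, 11 weeks old, and their colon cells were sorted singly and profiled in plates by a modified Smart-seq2, which copies full-length polyadenylated RNA. In VillinCre;IPMKf/f mice, floxed alleles of Ipmk are combined with a Cre recombinase under the Villin promoter, which acts in the intestinal epithelium. The labels call the other mice wt and say nothing of whether they carried Cre or floxed alleles. The labels put 92 of the colonocytes in a tuft cell sort, based on EPCAM and SIGLEC-F, and 33 in an epithelial sort.

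Well titles give 7 plate sets. Sets 2, 4, 5 and 7, with 16, 17, 24 and 12 colonocytes, are VillinCre;IPMKf/f, and sets 1, 3 and 6, with 13, 12 and 31, are wt. No label names an animal and no plate set holds both genotypes, so plate set and genotype cannot be told apart. Each genotype is 1 sample: no p-values are given, and every SD is the spread between plate sets, which may be technical. The epithelial sort gave 9, 2, 7 and 5 of the colonocytes in the VillinCre;IPMKf/f sets and 2, 3 and 5 in the wt sets. TPM keeps no read depth, and detected genes stand in for it. Their median per colonocyte was 2088.5, 2732, 2103 and 2631.5 in the VillinCre;IPMKf/f sets, against 2384, 1760.5 and 3350 in the wt sets, so the groups overlapped. The 18S ribosomal RNA entry took 69.3% ± 5.14 of TPM in VillinCre;IPMKf/f colonocytes (SD, n = 4) and 61.95% ± 3.84 in wt colonocytes (SD, n = 3), and mitochondrial genes took 7.86% ± 3.48 and 12.6% ± 2.31 in the same order of genotypes. With TPM rescaled without these and the 20 most abundant genes, Saa1, Rtp4 and Pdk4 stayed past the rule of size defined below.

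Colonocytes take up sodium, chloride, water and short-chain fatty acids from the gut lumen, exchange chloride for bicarbonate, and shed defence proteins towards the microbiota. Krt20 and the surface enzyme Car4 mark the mature cells near the luminal surface. IPMK is a kinase that makes higher inositol phosphates and a phosphoinositide, and it also acts as a scaffold in nutrient signalling and transcription. The study sorted tuft cells to ask what loss of Ipmk in the epithelium does to them, and the colonocytes described here came along in those sorts.

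The cells carried the markers of colonocytes. Car4, a membrane-bound carbonic anhydrase that the rule did not use, was above 0 in 80% of the chosen cells, against 8.62% of the 731 other kept cells, with means of 341.02 and 9.84 TPM in the same order. Of 24 colonocyte markers other than Krt20, with Car4 and Lypd8 among them, a median of 17 were above 0 in a chosen cell. In another kept cell the median was 6. Lypd8, a secreted protein that holds flagellated bacteria away from the epithelium, was above 0 in 100% of the chosen cells. It was also above 0 in 58.8% of the other kept cells, with means of 2726.89 TPM in chosen and 105.4 TPM in other kept cells. The stem cell receptor Lgr5 was above 0 in 1 of them, the endocrine granule protein Chga in 0 and the leukocyte phosphatase Ptprc in 5. Tuft cell RNA was not absent: the tuft kinase Dclk1 was above 0 in 16 cells. Trpm5 was above 0 in 15, of which 6 were KO-labelled cells and 9 wt.

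Of the kept cells that met the other rules, 13 had Krt20 from 10 to under 20 TPM, and 98 of the colonocytes had at least 50 TPM. The nearest Krt20 values inside were 22.92, 25.18, 25.57 and 27.18 TPM, and the nearest outside were 19.01, 17.76, 16.36 and 15.79 TPM. For Trpm5 the nearest were 49.87, 48.52, 47.59 and 43.17 TPM inside and 53.54, 69.55, 80.53 and 97.61 TPM outside. Muc2 left a wide gap, with 197.01, 133.74, 47.48 and 25.8 TPM inside and 1873.48, 3689.19, 4482.96 and 5103.32 TPM outside. The number of detected genes ran 1032, 1067, 1079 and 1081 inside and 979, 960, 940 and 919 outside. Of 140 kept cells with enough Krt20, Trpm5 took out 10 and Muc2 took out 5.

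Colonocytes made up 17.02%, 14.8%, 21.8% and 37.5% of the kept cells in KO-labelled sets 2, 4, 5 and 7, against 14.3%, 9.84% and 10.6% in wt sets 1, 3 and 6. Over both sorts together the shares did not overlap, though the lowest KO-labelled set lay just above the highest wt set. The means were 22.8% ± 10.2 in KO-labelled sets (SD, n = 4) and 11.6% ± 2.38 in wt sets (SD, n = 3), 11.2 points apart, and 6.29 points apart without set 7, which had the fewest kept cells at 32. Within the tuft cell sort the means were 17.9% ± 9.03 in KO-labelled sets and 10.3% ± 2.42 in wt sets, and within the epithelial sort 43.8% ± 14.8 and 27.1% ± 5.45 in the same order. Within each sort the sets overlapped. In the tuft cell sort KO-labelled set 2 was at 9.33% and wt set 1 at 12.9%. In the epithelial sort KO-labelled set 4, at 22.2%, was below every wt set, the lowest of which was set 3 at 23.1%. A sort gate sets such shares, so they describe the sorted plates and not the tissue.

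Ipmk itself, a protein-coding gene on chromosome 10 from 71347763 to 71433327 on the plus strand (GRCm38), was not lower in KO-labelled colonocytes. Its plate-set means were 47.5, 51.3, 32.6 and 15.7 TPM in those sets, against 13.5, 10.7 and 14.9 TPM in the wt sets. The 2 ranges did not overlap, although set 7 lay close to the wt values. The log2 difference of mean TPM + 1, plate sets weighted equally, was 1.31, with an SD of 0.60 between sets. The share of cells with any Ipmk value was 69.6% in KO-labelled colonocytes (48 of 69 cells, exact 95% binomial interval 57.3% to 80.1%) and 69.6% in wt colonocytes (39 of 56, 55.9% to 81.2%). One cell of set 4 at 523.71 TPM held 60.1% of that set's Ipmk. Without the highest cell of each set the difference was 1.06 and no longer past the rule of size defined below. That rule held for Ipmk in 14 of 21 other settings, some of which only loosen it. A gene-level TPM does not read the floxed part of the gene alone, so these values do not show whether recombination took place, and the genotype is used below as the labels give it.

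**Figure D1:**
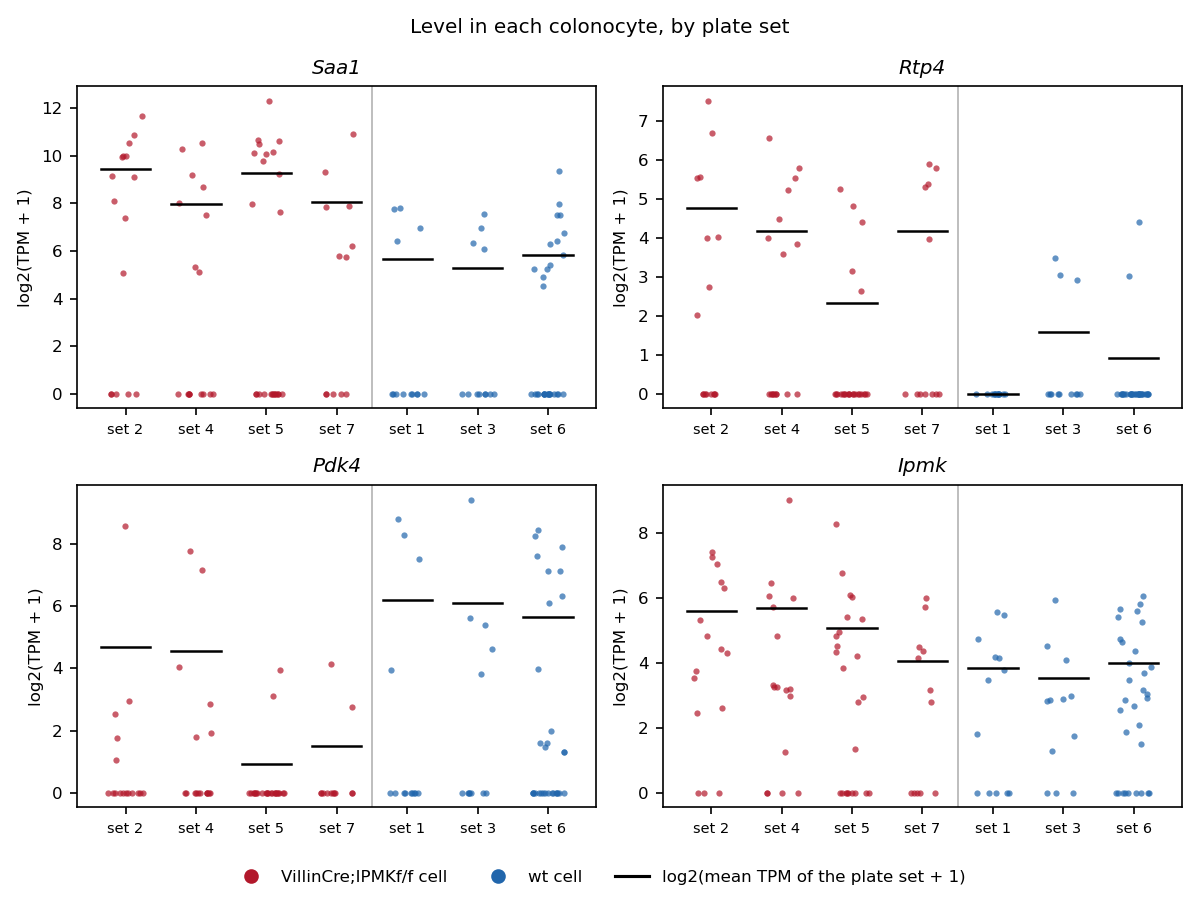
Each point is 1 colonocyte, its level on a log2(TPM + 1) scale against its plate set, with VillinCre;IPMKf/f sets left of the grey line and wt sets right of it; the bar is the log2 of the plate set's mean + 1. Saa1 and Rtp4 means are higher in each VillinCre;IPMKf/f set than in each wt set, Pdk4 means are lower, and Ipmk has cells at 0 and cells with values in all 7 sets.

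The rule of size took genes with a mean of 10 TPM or more in a genotype that differed at least 1.5-fold, had plate sets that did not overlap between genotypes, and were above 0 in at least 25% of the colonocytes of the higher genotype. Of 2652 genes that reached 10 TPM, 78 were higher in KO-labelled colonocytes (2.94%) and 4.98% were lower. Separation of the plate sets alone held for 93 genes higher (3.51%) and 6.03% lower. The share higher became 5.16% without set 1, 5.10% without set 2 and 5.77% without set 6, and the share lower 11.5% without set 3, 7.83% without set 5 and 10.97% without set 6, since fewer sets are easier to separate. The median log2 difference of all 2652 genes was −0.14, and the differences below are best read against it. Saa1 and Rtp4 among the 33 named higher genes, and Pdk4 among the 24 named lower genes, were past the rule under each of 21 other settings. A filter at 1 TPM, no filter and no minimum share of cells only loosen the rule, so no call can end under these.

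**Figure D2:**
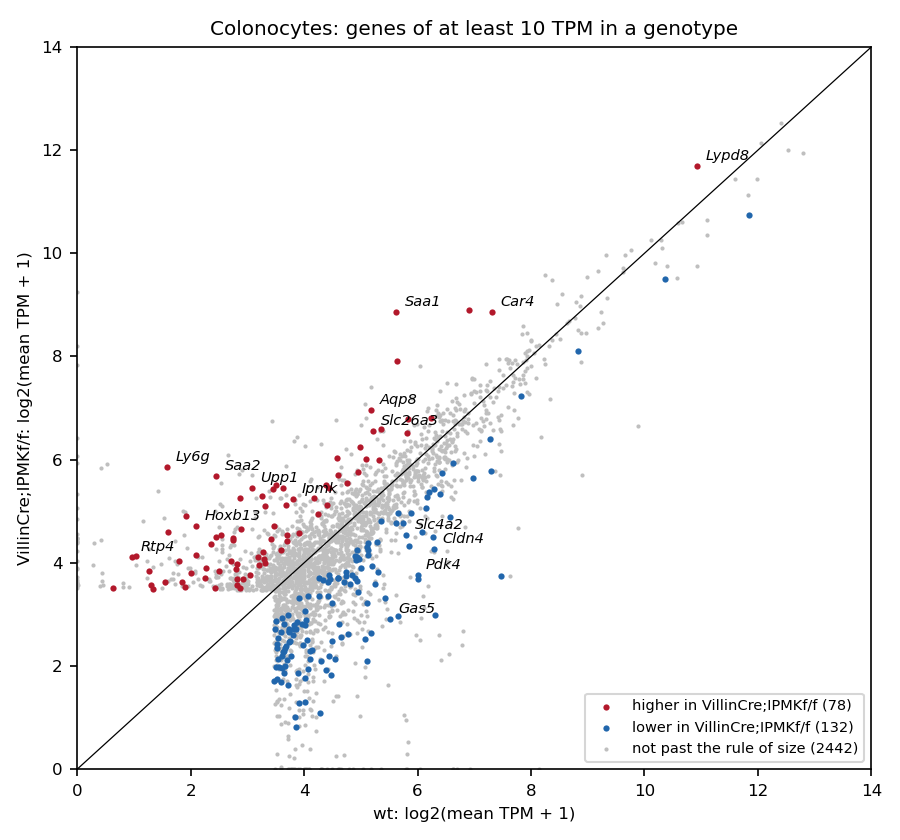
Each point is a gene of at least 10 TPM in a genotype, with the wt mean on the horizontal axis and the VillinCre;IPMKf/f mean on the vertical axis, both as log2(mean TPM + 1); the line marks equal levels. The 78 genes past the rule in the higher direction lie above it, Saa1, Car4 and Lypd8 among them, and those in the lower direction (4.98%) lie below it.

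Of the defence and acute-phase genes, Saa1, Saa2, Lypd8 and Pigr were past the rule, each higher in KO-labelled colonocytes. Saa1, an acute-phase protein that colonocytes secrete in response to microbes and cytokines, averaged 706, 249.9, 625.3 and 268.5 TPM in KO-labelled sets 2, 4, 5 and 7, against 49.9, 38.1 and 56.8 TPM in wt sets 1, 3 and 6. Every KO-labelled set was above every wt set, and the log2 difference was 3.10 with an SD of 0.64 between sets. With cells pooled over sets, Saa1 was above 0 in 53.6% of KO-labelled cells (41.2% to 65.7%) and 37.5% of wt cells (24.9% to 51.5%). These intervals overlap, but they cover counting error only. By set the shares were 68.75%, 47.1%, 45.8% and 58.3% in KO-labelled sets and 30.8%, 33.3% and 41.9% in wt sets, close but without overlap. Among cells above 0 the medians were 602.3 TPM in KO-labelled cells and 84.3 TPM in wt. The log2 difference ran from 2.42 to 3.42 over the other settings and from 2.84 to 3.34 when each plate set was left out. Saa1 lies on chromosome 7 from 46740497 to 46742980, minus strand, and Saa2, its close copy, from 46751790 to 46754313, plus strand (GRCm38).

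Saa2 averaged 44.004, 44.998, 95.4 and 15.999 TPM in the KO-labelled sets, against 0, 12.6 and 0.823 TPM in the wt sets, without overlap. Saa2 was above 0 in 23 of 69 KO-labelled cells and in 2 of 56 wt cells, and Saa1 was above 0 in every one of them. RSEM shares reads out between near-identical transcripts, so the split between Saa1 and Saa2 is uncertain. Without wt set 1 the Saa2 log2 difference of 3.88 became 3.11, and without wt set 3 it became 4.99.

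Lypd8 averaged 3103, 2607, 3542 and 4019 TPM in the KO-labelled sets, against 2007, 1622 and 2197 TPM in the wt sets, a log2 difference of 0.77 without overlap. Pigr, the receptor that carries IgA across the epithelium into the lumen, averaged 44.2, 64.95, 105.8 and 84.1 TPM in the KO-labelled sets and 38.01, 16.3 and 37.4 TPM in the wt sets. The Pigr sets did not overlap, with KO-labelled set 2 nearest to wt. Of 14 antimicrobial and acute-phase genes with at least 1 TPM, 11 were above wt, against 42.7% of all 9014 genes of that level. Their median log2 difference was 0.71, against −0.13 over those 9014 genes, and 0.07 in the tuft cell sort alone. Of the 9 that reached 10 TPM, 4 were past the rule as higher and 0 as lower, against 2.94% and 4.98% of all genes tested. Antimicrobial lectins went no single way: Reg3b averaged 33.8 TPM in KO-labelled cells and 42.2 TPM in wt, and Reg3g 27.8 and 24.4 TPM in the same order, both with overlapping sets. Part of the list was chosen with these cells' earlier results known, and no test was made of it.

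Ly6g, a lipid-anchored surface protein best known from neutrophils, had the highest log2 difference of the nameable genes past the rule, 4.35. Its plate-set means were 63.5, 22.2, 91.8 and 50.3 TPM in KO-labelled cells and 0, 2.94 and 3.09 TPM in wt, without overlap. In KO-labelled set 4, 1 cell at 344.29 TPM held 91.3% of Ly6g. Without the highest cell of each set the difference was 3.90 and the Ly6g call stayed. It ended in cells with at least 2000 genes and in cells with at least 50 TPM of Krt20. Cells above 0 made up 34.8% of KO-labelled cells (23.7% to 47.2%) and 8.93% of wt (2.96% to 19.6%). Of 15 markers of myeloid cells, 10 were at 0 in every colonocyte, among them the neutrophil calgranulins S100a8 and S100a9. The summed level of those markers was 0, 0, 38.4 and 0 TPM in the KO-labelled sets and 0, 0.349 and 1.59 TPM in the wt sets. Among them, Tyrobp at 670.01 TPM and Fcer1g at 238.35 TPM were each above 0 in 1 of 69 KO-labelled cells. Without wt set 1 the Ly6g difference was 3.69. How reads were split between Ly6g and related Ly6 genes was not measured.

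Genes of the transport machinery were higher at several steps, though the list as a whole was split. Of 25 ion and water transport genes with at least 1 TPM, 15 were above wt, against 42.7% of all genes of that level, and the median log2 difference was 0.22 (SD 0.29 between sets). Of the 15 that reached 10 TPM, 8 were past the rule as higher and 1 as lower, against 2.94% and 4.98% of all genes tested. It was −0.08 in the tuft cell sort alone. The summed level of the list in a colonocyte had medians of 740.02, 779, 634.4 and 819 TPM in the KO-labelled sets, against 602.2, 450.6 and 550.6 TPM in the wt sets, which did not overlap.

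At the luminal membrane, Slc26a3, the chloride-bicarbonate exchanger of the colon, averaged 75.7, 97.9, 111.9 and 84.2 TPM in the KO-labelled sets, against 41.2, 14.7 and 52.5 TPM in the wt sets. The sets did not overlap, the log2 difference was 1.49, and 79.7% of KO-labelled cells carried it (68.3% to 88.4%) against 51.8% of wt cells (38.03% to 65.3%). Car4, which supplies such exchangers with bicarbonate, averaged 611.7, 442.7, 474.98 and 321.9 TPM in KO-labelled sets and 119.5, 128.5 and 224.4 TPM in wt sets, a log2 difference of 1.57 without overlap. With cells pooled over sets, Car4 was nevertheless above 0 in a lower share of KO-labelled cells, 73.9% (61.9% to 83.7%) against 87.5% (75.9% to 94.8%) in wt. By set the shares overlapped, at 93.75%, 58.8%, 70.8% and 75% in KO-labelled sets and 84.6%, 91.7% and 87.1% in wt sets. Set 2, with the highest Car4 mean, also had the highest share. Where Car4 was above 0, its median was 403.6 TPM in KO-labelled cells and 120.6 TPM in wt, so the higher mean went with higher levels in the cells above 0. With logs averaged over cells the Car4 difference was 0.27 and no longer past the rule. The sulfate transporter Slc26a2 differed by 0.90 on the log2 scale, with 52.2 to 75.2 TPM in KO-labelled sets and 30.7 to 34.6 TPM in wt sets.

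Scnn1a, the alpha subunit of the epithelial sodium channel, averaged 11.3, 12.95, 16.7 and 46.1 TPM in the KO-labelled sets, against 0.538, 1.85 and 10.9 TPM in the wt sets. The closest pair, KO-labelled set 2 and wt set 6, all but touched. Its log2 difference of 2.38 was 1.74 without wt set 1 and 3.21 without wt set 6. Atp12a, the colonic proton-potassium pump, averaged 26.2, 5.37, 27.5 and 6.96 TPM in KO-labelled sets and 0, 1.71 and 1.47 TPM in wt sets, and was above 0 in 24 of 69 and 2 of 56 cells in the same order. Aqp8, a water channel, averaged 148.8, 86.6, 110.2 and 146.02 TPM in KO-labelled sets, against 19.7, 6.59 and 79.8 TPM in wt sets. Wt set 6 was close to KO-labelled set 4 for Aqp8, and the difference of 2.37 was 3.27 without wt set 6 and 1.56 without wt set 3. The calls of Scnn1a, Atp12a and Aqp8 ended on the first plate of each set and in cells with at least 2000 genes. They also ended without the highest cell of each set, at differences of 2.15, 3.07 and 2.64 in the same order. In KO-labelled set 7 the highest cell for Aqp8 held 67.5% of it, and the highest for Atp12a 61.3%. Ano1, a calcium-activated chloride channel, differed by 2.81, but the call ended without set 7, at 2.32, whose mean was 65.2 TPM against 9.52 to 20.98 TPM in the other KO-labelled sets.

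At the basolateral side the picture was mixed. Atp1b1, the beta subunit of the sodium pump, differed by 0.60 on the log2 scale. Its call ended without set 2, 3 or 7, at 0.52, 0.35 and 0.56. The phosphate transporter Slc20a1 averaged 60.4, 28.1, 55.6 and 25.5 TPM in KO-labelled sets, against 11.9, 11.1 and 6.84 TPM in wt sets, a difference of 1.92. Slc4a2, the basolateral anion exchanger, went the other way, with 24.5, 27.3, 20.3 and 16.6 TPM in KO-labelled sets and 69.1, 34.3 and 60.6 TPM in wt sets. Its log2 difference was −1.23 without overlap. The mineralocorticoid receptor Nr3c2 averaged 65.2 TPM in KO-labelled cells and 82.2 TPM in wt, and its target kinase Sgk1 124.8 and 90.9 TPM in the same order, both with overlapping sets.

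**Figure D3:**
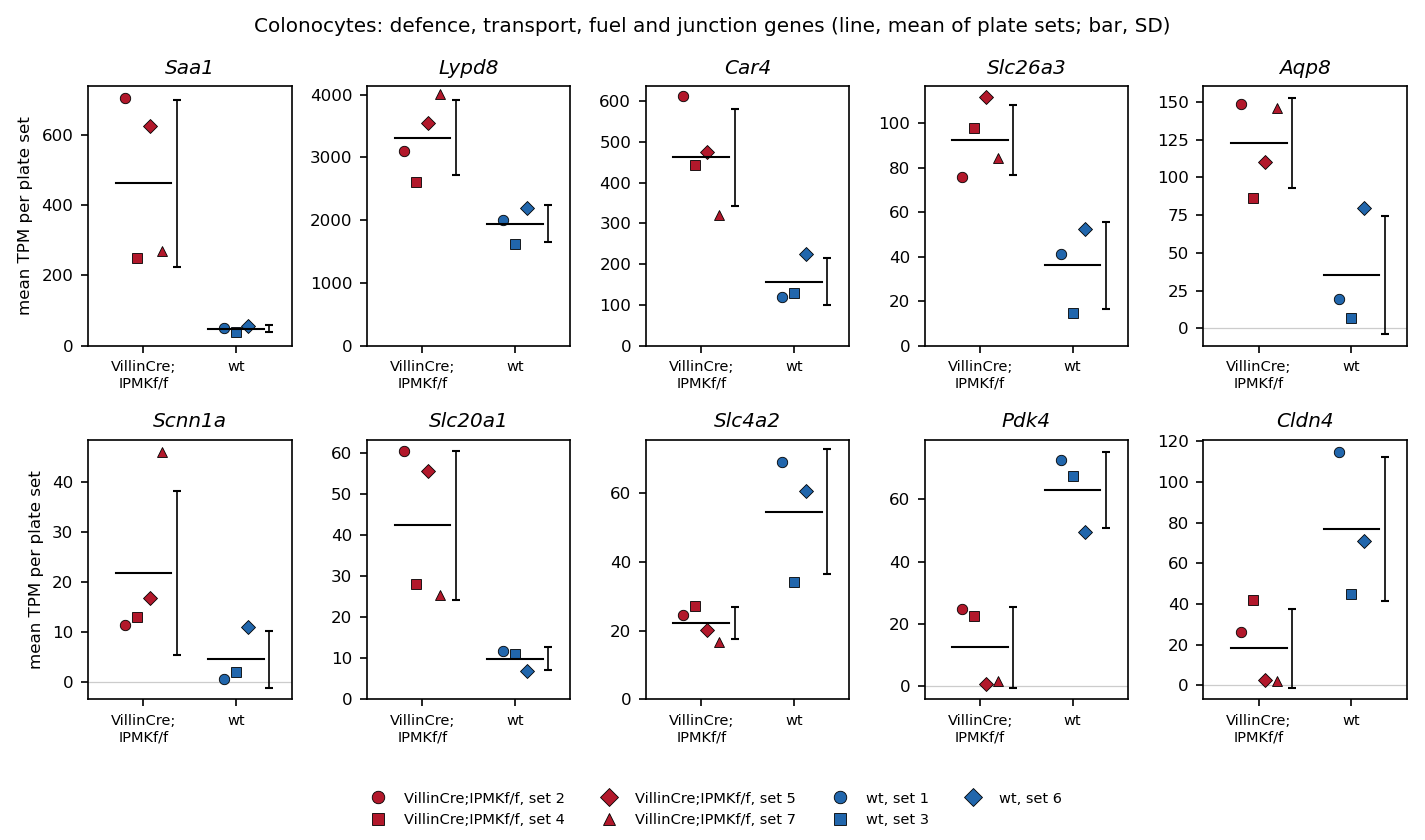
Mean TPM of 10 genes in each plate set, VillinCre;IPMKf/f left of wt in every panel; the line is the mean over plate sets and the bar their SD (n = 4 VillinCre;IPMKf/f and 3 wt sets). Saa1, Lypd8, Car4, Slc26a3, Aqp8, Scnn1a and Slc20a1 are higher and Slc4a2, Pdk4 and Cldn4 lower in VillinCre;IPMKf/f, with the least room between sets for Aqp8, Scnn1a and Cldn4.

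Interferon-response genes were higher as a list. Of 31 with at least 1 TPM, 30 were above wt, the exception being Mx1, with 0.40 TPM in KO-labelled cells and 1.22 TPM in wt. The sets did not overlap for 12 of the 31 in the higher direction and for 0 in the lower, against 2.47% and 4.62% of all genes of that level. Against 2.94% of all genes tested, 6 of the 13 that reached 10 TPM were past the rule as higher: Rtp4, Ifit1bl1, Ifit1, Oas3, Lgals3bp and Ifi35. The median log2 difference was 1.04 (SD 0.44 between sets), from 0.97 to 1.27 when each plate set was left out and from 0.45 to 1.77 over the other settings. These genes are switched on together by interferon, and many of their products block viral RNA and protein synthesis.

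Rtp4, an interferon-induced chaperone that also binds RNA, averaged 26.3, 17.2, 4.08 and 17.3 TPM in the KO-labelled sets, against 0, 2.002 and 0.886 TPM in the wt sets. The sets did not overlap, set 5 being the lowest of the KO-labelled sets, and the log2 difference was 3.04. It was above 0 in 37.7% of KO-labelled cells (26.3% to 50.2%) and 8.93% of wt cells (2.96% to 19.6%). Ifit1bl1 and Ifit1, of the family of interferon-induced RNA-binding proteins, differed by 2.09 and 1.98, and Oas3, which makes the second messenger of RNase L, by 1.51. The calls of Ifit1bl1, Ifit1 and Oas3 ended on the first plate of each set and in cells with at least 2000 genes. They also ended in cells with Car4 above 0 and without the highest cell of each set. In KO-labelled set 7, 1 cell at 142.03 TPM held 80.2% of Ifit1bl1. Ifit1 averaged 12.2, 19.2, 4.77 and 9.63 TPM in KO-labelled sets and 2.02, 1.29 and 2.42 TPM in wt sets. Its call ended without set 4, and that of Oas3 without set 2 or set 4, at 1.70 for Ifit1 and 1.21 and 1.33 for Oas3. Lgals3bp, a secreted glycoprotein, averaged 40.5, 51.5, 52.6 and 26.8 TPM in KO-labelled sets, against 15, 22.4 and 24.3 TPM in wt sets. Ifi35 differed by 0.68, and its call ended without set 1 or set 4, at 0.41 and 0.54. The Ifi35 call held in 10 of the 21 other settings, the fewest of the 33 named higher genes. In cells with at least 2000 genes its difference was 0.01.

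Some other members separated narrowly or not at all. Irf7, the transcription factor that amplifies the response, averaged 235.2, 152.7, 233.1 and 90.6 TPM in the KO-labelled sets and 69.5, 119.5 and 82.2 TPM in the wt sets, where wt set 3 overlapped with KO-labelled set 7. Oasl2 averaged 73.8, 45.4, 13.7 and 31.5 TPM in KO-labelled sets, against 3.65, 1.18 and 23.4 TPM in wt sets, and overlapped too. Irf9, a factor that binds the promoters of such genes, averaged 5.84 TPM in KO-labelled cells and 1.66 TPM in wt, under the 10 TPM of the rule. Its sets did not overlap, but KO-labelled set 5 at 3.97 TPM and wt set 6 at 3.90 TPM all but touched. Isg15, a ubiquitin-like modifier, averaged 9.73 TPM in KO-labelled cells and 0.98 TPM in wt, with overlapping sets.

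The pattern was seen across cells. A median of 12, 14, 9 and 8.5 of the 34 listed genes were above 0 per colonocyte in KO-labelled sets 2, 4, 5 and 7, against 5, 7 and 7 in wt sets 1, 3 and 6, and the groups did not overlap although wt set 6 had the most genes detected per cell. As a share of the genes detected in a cell the medians were 0.397%, 0.391%, 0.290% and 0.352% in KO-labelled sets, against 0.210%, 0.242% and 0.225% in wt sets. The summed level per cell had medians of 268.5, 404.5, 271.7 and 290.1 TPM in KO-labelled sets and 143.2, 150.3 and 189.8 TPM in wt sets. In the kept cells with Trpm5 at 50 TPM or more, taken from the same plate sets, the median of the list was 1.21, so those plates gave a higher list in tuft cells as well. Saa1 averaged 0 TPM in KO-labelled cells and 0.563 TPM in wt in those cells, and Aqp8 0.0585 and 0.0967 TPM in the same order. Genotype and plate set cannot be told apart for this list either.

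**Figure D4:**
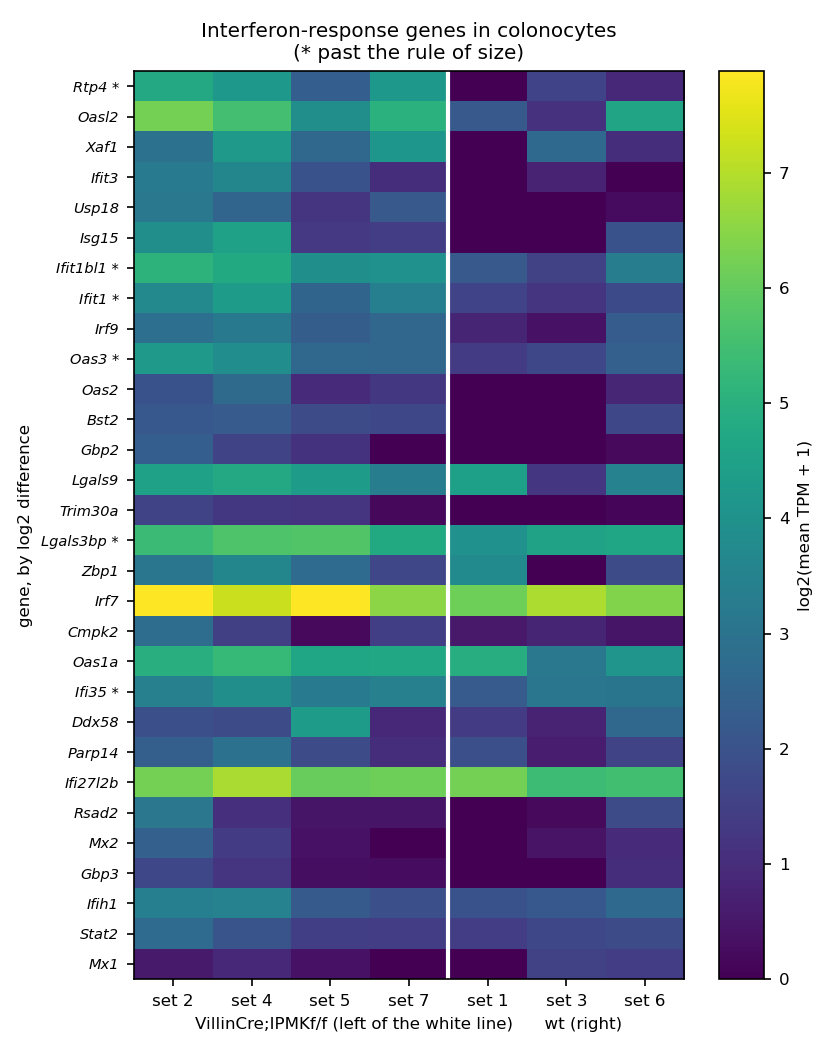
Mean level of 30 interferon-response genes, as log2(mean TPM + 1) by colour, in each plate set, with VillinCre;IPMKf/f sets left of the white line and wt sets right of it; rows run from the highest to the lowest log2 difference. Set 2 or set 4 holds the highest value in 26 of 30 rows, and Irf7 and Ifi27l2b are the brightest rows on both sides.

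The start regions of 3 of these genes show the motif by which interferon-activated factors are known to bind. The window is 250 bases before to 50 after the start of transcription, from RefSeq (GRCm38.p6), and the motif searched was GAAANNGAAA on either strand, which reads TTTCNNTTTC on the other. Matches are in capitals.
Ifit1, chr19:34640639-34640938, plus strand: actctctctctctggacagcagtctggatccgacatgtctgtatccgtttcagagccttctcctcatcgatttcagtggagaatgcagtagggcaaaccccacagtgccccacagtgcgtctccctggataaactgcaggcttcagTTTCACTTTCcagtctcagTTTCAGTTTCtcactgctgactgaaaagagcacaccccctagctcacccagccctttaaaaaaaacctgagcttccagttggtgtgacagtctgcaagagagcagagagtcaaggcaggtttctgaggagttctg
Oas3, chr5:120777610-120777909, minus strand: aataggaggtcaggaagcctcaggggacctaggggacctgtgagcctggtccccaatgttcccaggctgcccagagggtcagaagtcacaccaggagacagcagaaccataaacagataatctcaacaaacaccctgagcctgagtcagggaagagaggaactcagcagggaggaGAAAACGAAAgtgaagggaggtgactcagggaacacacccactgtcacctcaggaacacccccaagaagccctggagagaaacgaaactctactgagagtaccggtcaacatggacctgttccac

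The motif stood in the windows of 3 of the 5 called interferon genes with a listed window, Ifit1, Oas3 and Ifit1bl1, and not in those of Ifi35 and Lgals3bp. Of 25 interferon genes with a window, 16 held it (64%). It was found for 3.99% of 27025 genes with a window, and for 4.73% of the 1860 genes with a window that reached 10 TPM in colonocytes. A match describes the letters and is not evidence of binding.

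Antigen presentation by class I followed less clearly. Of 15 genes with at least 1 TPM, 12 were above wt, against 42.7% of all genes of that level, and the median log2 difference was 0.33 (SD 0.25). Against 2.94% of all genes tested, 1 of the 10 that reached 10 TPM was past the rule as higher. That was Psmb8, a catalytic subunit of the immunoproteasome, with 13.2, 19.1, 14.1 and 12.3 TPM in KO-labelled sets and 3.22, 4.58 and 10.3 TPM in wt sets. B2m, the light chain of class I, averaged 176.3 TPM in KO-labelled cells and 101.7 TPM in wt, with overlapping sets.

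Colonocyte markers as a list were split in direction, although those past the rule were each higher. Of 25 colonocyte markers, 13 were above wt and 12 below, with a median log2 difference of 0.05. Of the 24 that reached 10 TPM, 6 were past the rule as higher and 0 as lower, against 2.94% and 4.98% of all genes tested. The 6 were Car4, Slc26a3, Aqp8, Saa1, Lypd8 and Slc37a2, a sugar-phosphate exchanger of the endoplasmic reticulum with a difference of 3.02. The 2 most abundant markers overlapped, Car1 with 5885 ± 1590 TPM in KO-labelled cells (SD, n = 4) and 5459 ± 1292 TPM in wt (SD, n = 3), and the hormone precursor Guca2a with 4529 ± 2305 and 4250 ± 2101 TPM in the same order. Krt20, which the rule used, averaged 246.9 ± 102.2 TPM in KO-labelled cells and 298.5 ± 113.99 TPM in wt. Of 19 brush border genes, 2 were above wt, against 42.7% of all genes of 1 TPM, with a median of −0.20 against −0.13. All 19 reached 10 TPM, and the actin bundler Eps8 alone was past the rule as lower, at −0.82, against 4.98% of all genes tested. Eps8 averaged 35.2 to 47.7 TPM in KO-labelled sets and 55.6 to 93.4 TPM in wt sets.

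Hoxb13, a homeobox gene of the posterior body and the distal gut, was past the rule as higher. It averaged 21.2, 6.54, 31.1 and 41.8 TPM in the KO-labelled sets, against 4.09, 3.84 and 1.85 TPM in the wt sets, a log2 difference of 2.41. Hoxb13 was above 0 in 36.2% of KO-labelled cells (24.99% to 48.7%) and 10.7% of wt cells (4.03% to 21.9%). Hoxa13 averaged 1.88 TPM in KO-labelled cells and 0.33 TPM in wt, while the more anterior Hoxb6 averaged 1.91 and 5.45 TPM and Hoxb7 1.57 and 4.29 TPM in the same order, all with overlapping sets. The labels name the tissue only as colon, and what part the stretch of colon sampled has in these values was not tested.

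In energy use, Pdk4, a mitochondrial kinase that inhibits pyruvate dehydrogenase, was lower in KO-labelled colonocytes. It averaged 24.9, 22.7, 0.911 and 1.85 TPM in the KO-labelled sets, against 72.6, 67.4 and 49.4 TPM in the wt sets, without overlap. The log2 difference was −3.06, −3.65 without set 2 and −2.39 without set 5. Pdk4 was above 0 in 21.7% of KO-labelled cells (12.7% to 33.3%) and 42.9% of wt cells (29.7% to 56.8%). Single cells carried much of it, 96.3% of the total of set 2 and 84.4% of that of set 3 lying in 1 cell each, but without the highest cell of each set the difference was −3.41.

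Other fuel genes did not follow Pdk4. Of 27 genes of short-chain and fatty acid use, 11 were above wt and 16 below, with a median of −0.11. Acaa2, a thiolase of mitochondrial fatty acid oxidation, was past the rule at −0.81, but set 2 stood apart at 5.38 TPM. The other KO-labelled sets averaged 33.7, 34.6 and 34.5 TPM and the wt sets 35.7, 46.8 and 36.7 TPM, and without set 2 the difference was −0.20. Of 26 nuclear genes of oxidative phosphorylation, 19 were above wt with a median of 0.30, which became −0.07 without wt set 3, while 10 of 12 mitochondrial-genome transcripts were below wt with a median of −0.30. Ndufa5, a subunit of complex I, had a log2 difference of 4.18 and averaged 193.9 to 343.5 TPM in KO-labelled sets and 15.5, 0 and 131.2 TPM in wt sets. It was above 0 in 26.1% of KO-labelled cells and 17.9% of wt cells, and its call ended without set 2 or set 4. Without wt set 3 it was 2.34 and without wt set 6 it was 5.86. How its reads were split with any similar sequence was not measured. Upp1, which splits uridine to feed carbon into sugar metabolism, averaged 39.4, 35.8, 37.7 and 57.4 TPM in KO-labelled sets and 1.93, 7.91 and 12.6 TPM in wt sets. The Upp1 difference of 2.60 was 1.96 without wt set 1.

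Junction genes were split as a list, 11 of 22 being above wt, against 42.7% of all genes of 1 TPM. Of the 16 that reached 10 TPM, 3 were past the rule as lower, against 4.98% of all genes tested. Cldn4, a sealing claudin, averaged 26.2, 41.9, 2.38 and 2.27 TPM in the KO-labelled sets, against 115.1, 44.95 and 71.03 TPM in the wt sets. KO-labelled set 4 and wt set 3 nearly touched, and 98.8% of the total of set 4 lay in 1 cell. Cldn4 was above 0 in 18.8% of KO-labelled cells (10.4% to 30.1%) and 48.2% of wt cells (34.7% to 61.97%), and its log2 difference of −2.77 was −3.44 without set 4. Ctnnb1, the beta-catenin of adherens junctions, differed by −0.82, and its call ended without wt set 1, at −0.50. The more abundant Cldn3 and Cldn7 averaged 350.97 and 428.9 TPM in KO-labelled cells and 469.9 and 437.1 TPM in wt, with overlapping sets.

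Of 25 Rbm genes with at least 1 TPM, which encode RNA-binding proteins, 2 were above wt, with a median log2 difference of −0.68 (SD 0.33). Of 17 Hnrnp genes 4 were above wt, with a median of −0.59, and of 10 Srsf genes 4, with a median of −0.42. Over all genes of that level 42.7% were above wt, close to the share of the Srsf genes, and the median was −0.13. These 3 lists were drawn by symbol after the lower genes had been seen, so their direction is a description only. Rbm5, a splicing regulator, averaged 17.7, 5.87, 17.96 and 8.28 TPM in KO-labelled sets, against 476.97, 31.5 and 21.4 TPM in wt sets. Wt set 1 stood far above the rest, and the difference of −2.52 was −1.14 without it and −3.34 without wt set 6. Hnrnpk, an RNA-binding protein, differed by −0.82, and its call ended without wt set 1, at −0.56. Srsf6, a splicing factor, differed by −1.60 and its call ended without wt set 3, at −1.24. Gas5, a noncoding host of small nucleolar RNAs, had the lowest difference of the nameable genes past the rule, −3.88, with 2.79, 0, 23.2 and 0 TPM in KO-labelled sets and 38.4, 50.7 and 45.3 TPM in wt sets. In wt set 3, 1 cell held 99.3% of Gas5, its call ended without wt set 6, at −3.86, as the share of cells above 0 then fell short, and without set 5 the difference was −4.87.

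The other genes lowest in KO-labelled colonocytes had mixed roles. Atp11a, a flippase of the plasma membrane, averaged 4.89, 5.51, 1.40 and 1.21 TPM in KO-labelled sets and 13.2, 26.1 and 16.3 TPM in wt sets, a difference of −2.32, and was past the rule in 20 of the 21 other settings. Atf7ip, a cofactor of a histone methyltransferase, averaged 4.80, 1.76, 1.69 and 1.83 TPM in KO-labelled sets, against 23.9, 30.4 and 9.55 TPM in wt sets. Aim1l averaged 3.12 to 8.92 TPM in KO-labelled sets and 12.1 to 74.9 TPM in wt sets, and its call ended with logs averaged over cells, with rescaled TPM and in cells with at least 2000 genes. Pmpcb, a subunit of the mitochondrial processing peptidase, differed by −2.36, and by −1.20 without wt set 1. Foxp4, a forkhead transcription factor, differed by −2.62, and its call ended without wt set 1, at −1.83. Gpcpd1, a phosphodiesterase of choline lipids, differed by −2.61, by −1.72 without wt set 3 and by −3.26 without wt set 1. Pmpcb was −2.998 without wt set 3. Tceb1, elongin C, was past the rule with all sets at −2.88, not without wt set 6, at −2.03, and was −3.61 without wt set 3. Tuba1a, an alpha tubulin, differed by −2.90, and its call ended on first plates and among cells with Trpm5 at 0, Car4 above 0 or at least 50 TPM of Krt20. In tuft cells of the same plates Tuba1a averaged 167.1 TPM with the KO label and 200.1 TPM in wt, and the part of tuft cell RNA in its difference was not tested. Mri1, an enzyme of methionine salvage, differed by −2.45, Rexo1 by −2.62 and Lrrc66 by −2.43. Leaving out wt set 6 made 3 of the lower genes lower still, Aim1l at −3.21, Lrrc66 at −3.08 and Rexo1 at −3.39. Among cells of the tuft cell sort alone, Lrrc66 turned to 0.24. Without the highest cell of each set, Lrrc66 was −0.17, Pmpcb −0.52 and Gpcpd1 −0.71, and none of them was past the rule. Of the wt total of Gpcpd1, 58.6% lay in 1 cell at 882.22 TPM. With logs averaged over cells Gpcpd1 was −0.41, and its call ended.

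The remaining genes highest in KO-labelled colonocytes were likewise of mixed roles. Tnni1, a troponin of slow muscle, averaged 18.9, 10.02, 21.8 and 27.8 TPM in KO-labelled sets, against 0, 7.49 and 4.90 TPM in wt sets. Its difference of 2.402 was 1.46 without wt set 1 and 3.003 without wt set 3. Ubac1, a subunit of a ubiquitin ligase, differed by 2.62. Sun2, a protein of the inner nuclear membrane, differed by 2.68, with 6.15, 4.20, 10.2 and 21.3 TPM in KO-labelled sets and under 1 TPM in each wt set, and its call ended without set 2 or set 7, at 2.83 and 2.28. Sult1b1, a sulfotransferase of phenols, differed by 0.78, with 36.2 to 57.9 TPM in KO-labelled sets and 20.1 to 29.8 TPM in wt sets.

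Of the inositol phosphate kinases, 7 had at least 1 TPM, 4 of them below wt. Of the 5 that reached 10 TPM, 2 were past the rule as higher, Ipmk and Ppip5k1, against 2.94% of all genes tested. Ppip5k1, which makes inositol pyrophosphates, averaged 32.6, 9.998, 23.2 and 19.7 TPM in the KO-labelled sets, against 3.58, 5.36 and 8.15 TPM in the wt sets. The sets did not overlap and the difference was 1.69. Ip6k1, which makes inositol pyrophosphates from the product of the pathway, averaged 5.22 TPM in KO-labelled cells and 13.3 TPM in wt, with overlapping sets. Itpk1, which phosphorylates lower inositol phosphates, averaged 28.9 and 23.5 TPM in the same order, also with overlap.

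Of 9 genes of endoplasmic reticulum stress that reached 10 TPM, 1 was past the rule as higher and 1 as lower, and of 11 of oxidative stress 1 as lower, against 2.94% and 4.98% of all genes tested. The disulfide isomerase Pdia3 was past the rule as higher, with a difference of 1.49 and 19.8 to 45.1 TPM in KO-labelled sets against 7.99 to 19.3 TPM in wt sets. The chaperone Hspa5 was past it as lower, at −1.12, with 10.2 to 44.4 TPM in KO-labelled sets and 51.1 to 70.3 TPM in wt sets. Gclm, a subunit of the enzyme that starts glutathione synthesis, was lower by the rule at −1.11, with 2.35 to 7.01 TPM in KO-labelled sets and 7.56 to 17.1 TPM in wt sets. The Gclm call ended in 7 of the 21 other settings, and the difference was −0.20 in the tuft cell sort and −0.25 in cells with at least 2000 genes. Of 22 early-response and heat shock genes 16 reached 10 TPM, of 21 genes of p53 response, apoptosis and pyroptosis 11 did, and none of these was past the rule in either direction.

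Markers of other cell types were at low levels throughout. Of 16 tuft cell markers with at least 1 TPM, 15 were below wt with a median log2 difference of −1.02, and their summed level was 1.61 to 40.9 TPM in KO-labelled sets and 10.4 to 152.2 TPM in wt sets. The rule's limits on Trpm5 and Muc2 bear on the tuft and goblet cell lists. Goblet cell markers summed to 8.67 to 118.7 TPM in KO-labelled sets and 12.2 to 64.02 TPM in wt sets, with 5 of 15 at 0 in all cells. Lymphocyte markers reached 20.8 TPM in KO-labelled set 5 and at most 1.55 TPM in a wt set, with 9 of 15 at 0 in all cells. Among them, Ccl5 at 255.99 TPM and Nkg7 at 134.45 TPM were each above 0 in 1 of 69 KO-labelled cells. The part of these other cell types in the differences above was not tested. Without wt set 3 the median over all genes of 10 TPM was −0.36, and without wt set 1 it was 0.01, so those sets move the whole scale.

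**Figure D5:**
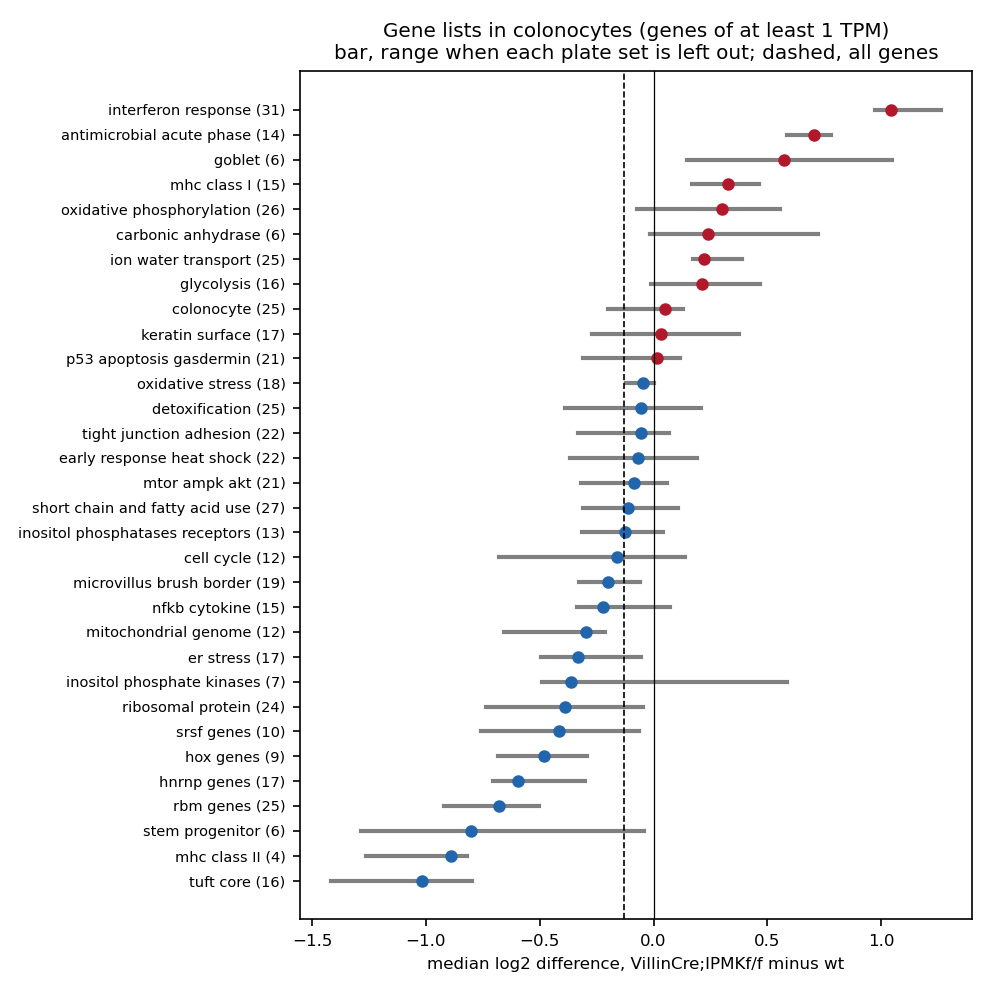
Median log2 difference, VillinCre;IPMKf/f minus wt, of each gene list with at least 4 genes of 1 TPM, the number of genes in brackets; the grey bar is the range when each plate set is left out, the dashed line the median of all genes of that level (−0.13). The interferon and antimicrobial lists lie farthest to the right, at 1.04 and 0.71, and tuft markers farthest to the left, at −1.02.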

How the data were processed

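The deposited table holds TPM for 46517 mouse genes in 1203 wells. The unit follows from the values, which sum to 1000000 in each non-empty column outside 1 near-empty plate, and the authors made them with Bowtie2 2.4.2 and RSEM 1.3.3 on mm10, per the submitters' processing notes. Read depth, strand handling and annotation: not given in the sources used here. For that plate, in set 7 (38 wells with at most 6 genes) the deposited columns, whose other unit could not be settled, served only to count genes; no colonocyte comes from it.

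TPM was averaged over the colonocytes of a plate set, and log2(mean TPM + 1) was compared as VillinCre;IPMKf/f minus wt with equal weight per plate set, which understates differences of low genes. Shares carry exact (Clopper-Pearson) 95% binomial intervals over cells pooled across plate sets. These cover counting error only and not the spread between sets. The members and the 36 gene lists were chosen with earlier results of these data known; 4 lists (Hox, Srsf, Hnrnp and Rbm genes) and 2 of the other settings were added after seeing the differences. Named are Ipmk, the rule's genes, Car4, the 15 highest and 15 lowest genes past the rule of size, and of each list the members past it and the 4 most abundant; symbols of Gm plus digits, ending in Rik or -ps, clone names and mitochondrial genes are counted but not named. A few list genes outside this were named after their values were seen, to show members that did not separate or did so narrowly. Doublets were not searched for, and no 2 colonocytes had identical columns. Calls are compared between settings as a percent of genes tested. The scripts were tested on simulated data (Python 3.11.15, numpy 2.4.6, pandas 2.3.3, SciPy 1.17.1). Coordinates are from GENCODE on GRCm38. A few genes counted in the lists are not reported here.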

Additional observations from a re-analysis of the deposited data

Results flagged for a closer look

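Among the named genes that reached 10 TPM, 8 had a VillinCre;IPMKf/f plate set standing far from the other 3 on the log2(mean TPM + 1) scale. These were 5.44% of the named genes searched, and chance flags about 1 in 20 groups, so their number is close to what chance gives. In 6 of the 8 it was set 2. Set 2 was the lowest for Acaa2 (5.38 TPM), Cox5b (303.8 TPM), Gclm (2.35 TPM), Hnrnpk (29.5 TPM) and Rbm42 (3.99 TPM), and the highest for Atf7ip (4.80 TPM). Set 7 was the lowest for Aim1l (3.12 TPM) and Rps14 (71.7 TPM). Cox5b, a subunit of cytochrome c oxidase, otherwise averaged 935, 888 and 944 TPM in VillinCre;IPMKf/f sets 4, 5 and 7, against 270.6, 177.7 and 461.2 TPM in wt sets 1, 3 and 6. The wt group has 3 sets and was not searched.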

How the results depend on the processing

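Results are compared here with the settings named in each sentence, and shares of genes past the rule of size are percents of the genes tested. With every set, 2.94% were higher and 4.98% lower. These became 1.46% and 2.77% with a filter at 1 TPM and 0.84% and 1.597% with no filter, as more low genes were tested and every earlier call stayed. With TPM rescaled without 18S, mitochondrial and the 20 most abundant genes they were 1.70% and 2.49% of 8660 genes, and of the 78 higher genes 55 were shared, of the lower 64. First plates gave 1.54% higher and 6.04% lower, with 26 and 78 genes shared, cells with at least 2000 genes 1.91% and 3.52%, with 18 and 39 shared, and cells with at least 50 TPM of Krt20 1.59% and 6.79%, with 31 and 91 shared. The tuft cell sort shared 40 higher and 67 lower genes, and averaged logs 46 and 53. Without the highest cell of each plate set, a setting chosen after seeing the data, 2.69% were higher and 4.87% lower of 1601 genes; 33 and 46 genes remained. Leaving out 1 plate set gave 3.26% to 5.77% higher and 6.02% to 11.5% lower, fewer sets being easier to separate. The interferon median was 0.45 with a pseudocount of 10 TPM, 1.74 with 0.1 TPM and 1.77 after rescaling. The antimicrobial median was 0.32 with a pseudocount of 10 TPM, 0.46 with logs averaged, 0.065 in the tuft cell sort, 0.48 with at least 2000 genes and 0.94 with Trpm5 at 0. Ion and water transport was −0.077 in the tuft cell sort, colonocyte markers −0.29 on first plates, and Ipmk 0.70 with logs averaged. Lrrc66 was 0.24 in the tuft cell sort, the only named gene past the rule that reversed. The causes were not tested, other than the number of genes or sets by construction. The remaining 130 values for the main comparisons moved by less than the spread between plate sets, or for shares by less than 1.5 times. No paired analysis was possible because no plate set holds both genotypes. Genes detected stand in for depth, which TPM does not give, and genes of low level rest on few cells.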

Other observations

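The genes here were chosen after their values were seen. Fxyd4, a regulator of the sodium pump in the colon, averaged 94.5, 35.6, 120.02 and 14.7 TPM in VillinCre;IPMKf/f sets 2, 4, 5 and 7, and is listed at 0 in every wt colonocyte. It was above 0 in 14.5% of VillinCre;IPMKf/f colonocytes, too few for the rule of size. Sycn, a secretory granule protein, averaged 661, 343.7, 553.1 and 354.5 TPM in the VillinCre;IPMKf/f sets, against 125.9, 140.2 and 89.6 TPM in the wt sets, a log2 difference of 1.97. Among abundant genes that were lower, Phgr1, a small protein of the gut epithelium, averaged 751, 775, 631.2 and 749 TPM in VillinCre;IPMKf/f sets and 1747, 886 and 1326 TPM in wt sets, a difference of −0.81. Ucp2, an uncoupling protein of the mitochondrion, averaged 137.8, 148.4, 134.1 and 177.6 TPM in VillinCre;IPMKf/f sets, against 220.5, 244.4 and 214.5 TPM in wt sets, a difference of −0.60. Txnip, which curbs glucose uptake and thioredoxin, averaged 101.3, 100.5, 93.9 and 37.4 TPM in VillinCre;IPMKf/f sets and 230.3, 113.4 and 121.3 TPM in wt sets, a difference of −0.92. The sets of Sycn, Phgr1, Ucp2 and Txnip did not overlap.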
